A study of Mus musculus with 8 samples.

Results

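Circadian clock genes were followed in the ovaries of LY mice. The list held 10 genes: Per1, Per2, Per3, Cry1, Cry2, Clock, Nr1d1, Nr1d2, Dbp and Tef. They were chosen by name and not by a rule on their values, though with earlier results of these data known. Every probe that the platform annotation assigns to 1 of them was taken. This gave 13 probes for 9 of the 10 genes, out of 36227 probes on the array, where 18069 genes in all are the single name of a probe. Dbp had no probe of its own. The probe that carries its name is also annotated to Sphk2 and Pip5k1c, and it is called the shared probe here. Dbp and Sphk2 overlap by 741 bases on chromosome 7 (chr7:45709463-45710203, GRCm38.p6), and the values of the shared probe cannot be assigned to 1 of its 3 genes.

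Female LY mice carry 1 lethal yellow allele (Ay) and 1 nonagouti allele (a) at the agouti locus on the C57BL/6J background, a genotype with adult-onset obesity and insulin resistance. The 4 vehicle-treated mice received DMSO by gavage every day, and the 4 pioglitazone-treated mice received pioglitazone in DMSO. Treatment began at 120 days and ended at 180 days of age. The dose per day is 0.1 mg in the series text and lower in the methods of the paper. The Ay allele is active in most tissues and not in the ovary alone. All mice were kept on a light and dark cycle and fasted overnight before collection, 1 ovary of each mouse was measured on 1 CodeLink array, and neither the hour of collection nor the stage of the estrous cycle is given in the sources used here. Lean C57BL/6J a/a mice were not analysed here.

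The molecular clock of mammals is a feedback loop that runs in most cells. CLOCK and its partner ARNTL (BMAL1) bind E-box sequences and switch on the Per and Cry genes, whose proteins then block CLOCK and ARNTL. NR1D1 and NR1D2 (REV-ERB proteins) repress Arntl, ROR proteins activate it, and DBP, TEF and HLF bind D-box sequences in genes such as Per3. In mouse tissues collected around the day, Dbp, Tef, Hlf, Nr1d1 and the Per genes are high when Arntl and Npas2 are low, and the reverse, so that the levels of both sets are used as a sign of the clock's phase. In the ovary the clock runs in granulosa, theca and luteal cells.

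Values are linear intensities in relative intensity units, in which the median probe of an array is 1 and 0.2 is the limit of sensitivity that the study used. Deposited medians lay between 1.007 and 1.014, 82.5% to 83.9% of the probes of an array reached 0.2, and 47 to 211 spots per array were missing. Vehicle mouse 3 was the array least like the others, and pioglitazone mouse 1 came next. Over log2 values the mean correlation of vehicle mouse 3 with the other arrays was 0.960. It was 0.964 for pioglitazone mouse 1 and up to 0.978 for the others. Vehicle mouse 3 was the lowest of the 8 mice at 22.6% of the probes tested and the highest at 25.4%. Pioglitazone mouse 1 was the lowest at 11.7% and the highest at 21.1%, and vehicle mouse 1 the highest at 17.5%. Markers of the ovary were present on every array, with the zona pellucida gene Zp3 at 29.5 to 62.8 and the steroid enzyme Hsd3b1 at 113 to 242. The adipocyte list summed to 127 in pioglitazone mouse 1 and to 15.8 to 69.5 in the others, where 5 of its 6 measured genes reached 0.2 on every array and Lep on 4. Since each sample was a whole ovary, fewer cells of a type and less RNA per cell cannot be told apart. The 4 arrays per group limit the precision.

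The sequences shown are the 250 bases before the annotated start of Per3, Tef and Ciart, taken from RefSeq on GRCm38.p6, because these genes were low together in vehicle mouse 2 and their windows hold a clock motif. The choice was made with both known. Hlf and the shared probe were also lowest in that mouse, and the windows of Hlf and Dbp hold none of the motifs searched. Capitals mark the D-box TTATGTAA in Per3 and the E-box CACGTG in Tef and Ciart. Ciart encodes a repressor of CLOCK and ARNTL. The Per3 window (chr4:151044666-151044915, minus strand) holds the D-box at 205 and at 158 bases before the start. Tef has windows at 2 starts (chr15:81802423-81802672 and chr15:81811164-81811413, plus strand), with 1 E-box in each, at 127 and 138 bases before the start. The Ciart window (chr3:95882229-95882478, minus strand) holds 3 E-boxes, at 116, 58 and 44 bases before the start.
Per3: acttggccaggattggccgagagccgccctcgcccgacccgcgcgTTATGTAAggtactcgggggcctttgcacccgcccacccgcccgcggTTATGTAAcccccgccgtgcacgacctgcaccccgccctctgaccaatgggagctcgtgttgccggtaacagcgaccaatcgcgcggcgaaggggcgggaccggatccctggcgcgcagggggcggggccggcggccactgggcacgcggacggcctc
Tef, first start: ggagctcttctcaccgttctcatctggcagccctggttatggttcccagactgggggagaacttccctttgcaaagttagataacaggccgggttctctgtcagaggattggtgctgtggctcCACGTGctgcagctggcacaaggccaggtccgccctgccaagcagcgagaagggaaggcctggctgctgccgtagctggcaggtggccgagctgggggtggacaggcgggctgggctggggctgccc
Tef, second start: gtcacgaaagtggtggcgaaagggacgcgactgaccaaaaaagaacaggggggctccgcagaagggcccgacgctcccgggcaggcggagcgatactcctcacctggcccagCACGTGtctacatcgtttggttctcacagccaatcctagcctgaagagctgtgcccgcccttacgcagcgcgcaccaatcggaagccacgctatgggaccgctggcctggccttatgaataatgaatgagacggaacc
Ciart: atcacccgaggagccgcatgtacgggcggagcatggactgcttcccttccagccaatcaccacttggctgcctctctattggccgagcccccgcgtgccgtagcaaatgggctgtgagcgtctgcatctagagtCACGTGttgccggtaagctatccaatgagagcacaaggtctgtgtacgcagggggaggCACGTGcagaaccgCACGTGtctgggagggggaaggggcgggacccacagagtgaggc
On either strand, the D-box TTATGTAA was found in 0.819% of the 32851 windows of this length in the table, the D-box TTACGTAA in 0.113% and CACGTG in 6.02%. Windows were given for 9 of the 10 members. Among these, CACGTG was found in Per1, Cry1 and Tef, and TTATGTAA in Per3. AGGTCA, the core of the sequence bound by REV-ERB and ROR proteins, was found in Per1, Clock and Nr1d2 and in 14.0% of all windows. None of these motifs overlapped another in the windows printed. A match is a description of the letters and not a measured site.

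Tef and its relative Hlf encode PAR bZIP proteins, which bind the D-box. Both, and the shared probe, were lowest in vehicle mouse 2. The shared probe of Dbp, Sphk2 and Pip5k1c was at 43.6, 8.78, 52.0 and 34.5 in vehicle mice 1 to 4 and at 33.8, 32.3, 55.1 and 39.8 in pioglitazone mice 1 to 4. Vehicle mouse 2 lay far below the other 7 mice, which ranged from 32.3 to 55.1, and the groups overlapped. The brighter Tef probe was at 45.9, 17.1, 21.3 and 34.8 in vehicle mice and at 36.2, 33.6, 37.6 and 33.4 in pioglitazone mice. Vehicle mice 2 and 3 were the low ones, and the other 6 mice lay between 33.4 and 45.9. A second Tef probe gave the same order at the bottom, with 19.3, 6.37, 7.21 and 15.7 in vehicle mice and 14.5, 13.6, 17.2 and 13.5 in pioglitazone mice. A further Tef probe was under 0.2 on all 8 arrays and was not tested.

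Hlf, the other PAR bZIP gene, is no member and was looked at because of the values above. It was at 3.30, 0.947, 2.00 and 3.44 in vehicle mice and at 2.57, 2.92, 4.29 and 2.52 in pioglitazone mice. Vehicle mouse 2 was again the lowest and vehicle mouse 3 the next. In limma the log2 differences, pioglitazone minus vehicle, were 0.45 (standard error 0.50) for the shared probe, 0.35 (0.29) and 0.43 (0.35) for the Tef probes and 0.48 (0.39) for Hlf. The adjusted p was 0.898 for the shared probe and 0.876 for the other 3 probes. The 95% interval of the brighter Tef probe ran from -0.30 to 0.99. Without vehicle replicate 2 the log2 difference of the shared probe was -0.12, so that its direction rested on that mouse, and those of the brighter Tef probe and Hlf were 0.12 and 0.08. Without vehicle replicate 1 the brighter Tef probe passed the unadjusted threshold of 0.05 in limma (log2 difference 0.59), as did the second (0.71).

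The Per genes encode the repressors that close the loop. Per2 was at 0.490, 0.0699, 0.297 and 0.559 in vehicle mice and at 0.151, 0.801, 0.841 and 0.347 in pioglitazone mice. Vehicle mouse 2 and pioglitazone mouse 1 were under the limit of 0.2, and the groups overlapped. Per3, a Per family member with a strong rhythm in many tissues, had 3 probes, of which the brightest was at 0.318, 0.258, 0.439 and 0.312 in vehicle mice and at 0.482, 0.323, 0.408 and 0.426 in pioglitazone mice. The next was at 0.300, 0.0825, 0.305 and 0.339 in vehicle mice and at 0.354, 0.244, 0.352 and 0.469 in pioglitazone mice. Vehicle mouse 2 was the lowest of the 8 mice in both probes and under 0.2 in the latter. The remaining Per3 probe was under 0.2 on all arrays.

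Per1, which also responds to hormones and stimuli as an immediate early gene, was nearly level. It ranged from 0.985 to 1.14 in vehicle mice and from 0.970 to 1.10 in pioglitazone mice, and its highest value was 1.18 times its lowest. The log2 differences between the groups in limma were 0.66 (standard error 0.73) for Per2, 0.32 (0.20) and 0.62 (0.43) for the Per3 probes and -0.06 (0.13) for Per1. Their adjusted p ran from 0.852 to 0.944. The 95% interval of Per1, from -0.35 to 0.22, was narrow, while that of Per2 ran from -0.99 to 2.31. The difference of Per2 was 0.000196 without vehicle replicate 2 and 1.17 without pioglitazone replicate 1, and that of the brightest Per3 probe was 0.21 without vehicle replicate 2. With the replicate number as a block the dimmer Per3 probe passed the unadjusted threshold of 0.05 in limma (log2 difference 0.62), and without vehicle replicate 3 the brightest did (0.46).

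**Figure D1:**
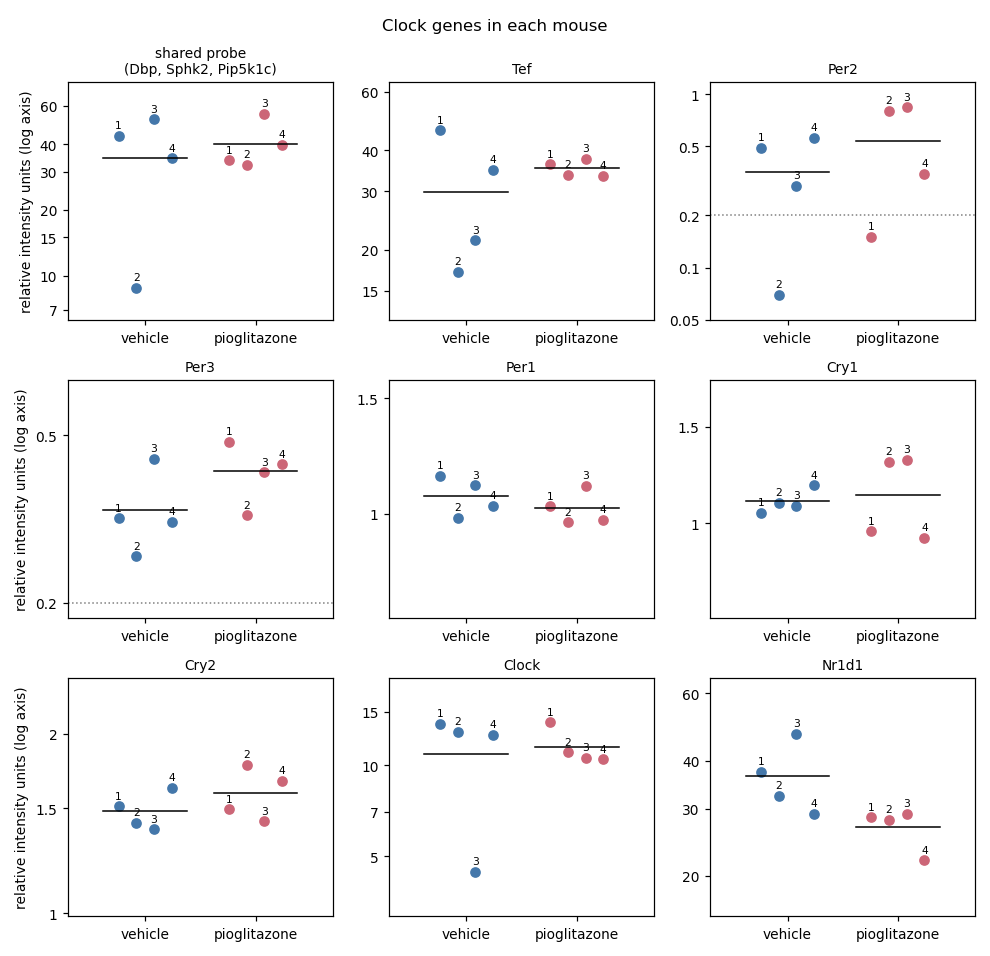
Relative intensity units (log axes) of the shared probe and of the brightest probe of Tef, Per2, Per3, Per1, Cry1, Cry2, Clock and Nr1d1 in each mouse. Each numbered point is 1 mouse, a horizontal line gives the arithmetic mean of a group, and dots mark the 0.2 limit. Vehicle mouse 2 was the lowest in the shared probe (8.78), Tef (17.1), Per2 (0.0699) and Per3 (0.258), and vehicle mouse 3 was the lowest in Clock (4.43).

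The cryptochromes, which repress together with the PER proteins, differed little. Cry1 was at 1.05, 1.09, 1.08 and 1.17 in vehicle mice and at 0.968, 1.29, 1.31 and 0.941 in pioglitazone mice. The pioglitazone-treated mice surrounded the vehicle-treated mice on both sides. Cry2 ranged from 1.38 to 1.62 in vehicle mice and from 1.43 to 1.77 in pioglitazone mice. The log2 differences in limma were 0.02 (standard error 0.16, 95% interval -0.33 to 0.38) for Cry1 and 0.10 (0.14, -0.21 to 0.40) for Cry2, with adjusted p of 0.985 and 0.916. The difference of Cry1 was -0.05 without pioglitazone replicate 2 or 3.

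Clock, the partner of ARNTL, was at 13.7, 12.9, 4.43 and 12.6 in vehicle mice and at 13.9, 11.0, 10.6 and 10.4 in pioglitazone mice. Vehicle mouse 3 lay far below the other 7, on the array least like the others over all probes. The log2 difference was 0.19 (standard error 0.34, adjusted p = 0.935 in limma) with all mice and -0.20 without vehicle replicate 3.

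Nr1d1, which encodes the REV-ERBα repressor of Arntl, was the 1 member probe of 10 tested that passed an unadjusted p of 0.05. It was at 37.4, 32.4, 47.0 and 29.07 in vehicle mice and at 28.5, 28.0, 29.03 and 22.0 in pioglitazone mice. The groups did not overlap, but vehicle mouse 4 and pioglitazone mouse 3 were almost level. The means were 36.5 ± 7.8 and 26.9 ± 3.3 (SD, n = 4 each), a ratio of 0.737. The log2 difference was -0.43 (standard error 0.18, 95% interval -0.84 to -0.01, unadjusted p = 0.0443 and adjusted p = 0.837 by limma), while the 2-sided exact permutation p was 0.0286, the smallest that 4 against 4 mice allow. Over all 30634 probes, 5.5% passed this unadjusted p, 3.53% as lower with pioglitazone, and the groups of 4.59% did not overlap. The count of 1 in 10 member probes is thus near the background. The difference stayed negative in each of the 21 alternatives run, and its unadjusted p was under 0.05 in 9 of them. It missed the threshold with quantile or cyclic loess normalization (log2 differences of -0.30 and -0.32), with array weights (-0.28), with no filter on dim probes, on linear values and with the unmoderated test that the methods name, and also without vehicle replicate 1 or 3 (-0.41 and -0.30) and without pioglitazone replicate 1, 2, 3 or 4 (-0.46, -0.45, -0.47 and -0.33).

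Of the 7 luteal, 5 macrophage and 10 granulosa marker probes tested, 1 passed the unadjusted threshold in limma, as higher with pioglitazone. It was that of Fst (follistatin, which binds activin), whose groups overlapped (2-sided exact permutation p = 0.114). Over all probes 5.5% passed, 1.97% as higher, and the median log2 difference was -0.034. Of the luteal probes tested 0 of 7 had a positive log2 difference (median -0.717), with sums of 265 to 381 in vehicle mice and 134 to 333 in pioglitazone mice. Of the macrophage probes it was 0 of 5 (median -0.228), with sums of 77.7 to 113 and 63.8 to 92.0. Of the granulosa probes it was 10 of 10 (median 0.324), with sums of 105 to 140 and 115 to 204. The other marker lists had no call. Positive differences were seen in 4 of 8 oocyte, 4 of 6 adipocyte, 1 of 3 muscle, 1 of 1 theca and 1 of 1 oviduct probes tested. All luteal and macrophage probes reached 0.2 on at least 1 array, and 2 of 12 granulosa probes, both of Inhbb, on none. The part of these cells in the values of Nr1d1 and the other clock genes was not tested.

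Nr1d2, which encodes REV-ERBβ, reached 0.2 in 1 of 8 arrays, pioglitazone mouse 1 at 0.287, and was not tested. The median log2 difference of the 10 member probes tested was 0.256, with 8 positive and 2 negative, beside a median of -0.034 over all probes. After adjustment over all probes 0 member probes and 0 probes in all passed 0.05 in limma, where the smallest adjusted p was 0.599. The shared probe, which is outside these counts, did not pass either.

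Of the list of 20 other clock genes, 17 were tested with 18 probes. Passing an unadjusted p of 0.05 in limma were 0 as higher and 2 as lower with pioglitazone, against 1.97% and 3.53% of all probes. Nfil3 encodes a repressor that competes with the PAR bZIP proteins for the D-box. It was at 2.65, 2.92, 3.27 and 2.28 in vehicle mice and at 2.20, 2.15, 2.08 and 1.57 in pioglitazone mice, with no overlap. Its log2 difference was -0.47 (standard error 0.17, adjusted p = 0.837 in limma, 2-sided exact permutation p = 0.0286), and it missed the unadjusted threshold without vehicle replicate 2 or pioglitazone replicate 4 (log2 differences of -0.45 and -0.36). Bhlhe41 encodes DEC2, a repressor that binds E-boxes. Its brighter probe was at 0.345, 0.419, 0.331 and 0.367 in vehicle mice and at 0.149, 0.258, 0.279 and 0.308 in pioglitazone mice, again with no overlap. The log2 difference was -0.60 (standard error 0.23, adjusted p = 0.837 in limma, 2-sided exact permutation p = 0.0286), and it missed the unadjusted threshold on linear values and without vehicle replicate 2 or 4 (-0.54 and -0.60). A dimmer Bhlhe41 probe, with means of 0.177 and 0.151, had overlapping groups and was not tested. The 18 probes had 5 positive and 13 negative log2 differences and a median of -0.128. Groups did not overlap in 3 of the 18, against 4.59% of all probes. These were Nfil3, the brighter Bhlhe41 probe and the dimmer Rora probe. The dimmer Rora probe was at 5.115 to 6.505 in vehicle mice and at 3.719 to 5.038 in pioglitazone mice. The brighter Rora probe had overlapping groups.

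**Figure D2:**
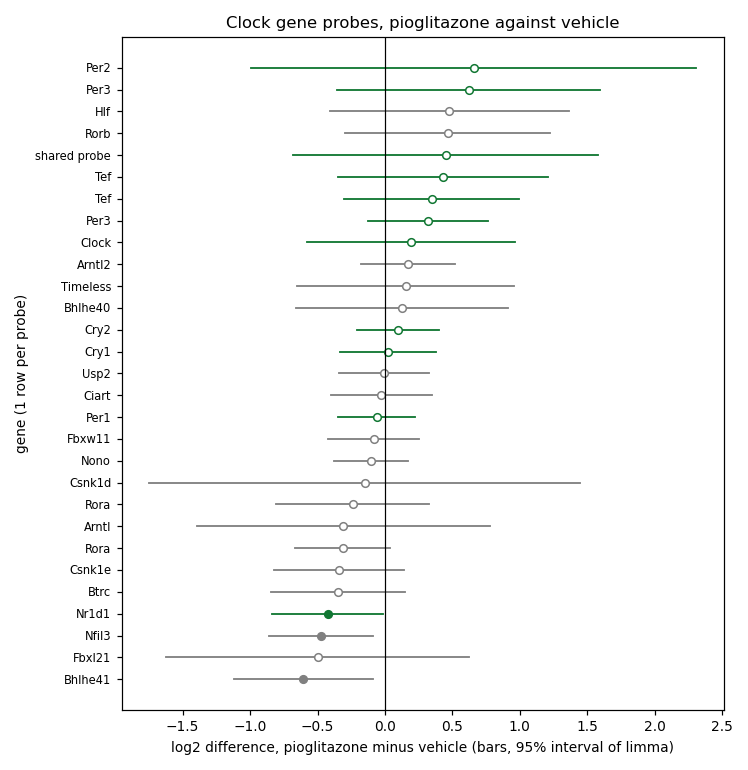
Log2 differences, pioglitazone minus vehicle, of the clock probes tested in limma, with 95% intervals. Green marks the members and the shared probe, grey the other clock genes, and filled points an unadjusted p under 0.05. The filled points are Nr1d1 (-0.43), Nfil3 (-0.47) and Bhlhe41 (-0.60), and the interval of Per2 is wide (-0.99 to 2.31).

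Arntl, the activator that is high when the D-box genes are low in tissues with a running clock, was at 6.22, 11.6, 1.96 and 4.67 in vehicle mice and at 6.60, 3.58, 3.13 and 3.80 in pioglitazone mice. Its highest value, in vehicle mouse 2, was 5.94 times its lowest, in vehicle mouse 3. The group difference was -0.31 on the log2 scale (standard error 0.48, adjusted p = 0.925 in limma), and it was 0.09 without vehicle replicate 2. Npas2, a paralog of Clock that can take its place, was at 0.197, 0.0878, 0.295 and 0.125 in vehicle mice and at 0.224, 0.0875, 0.0975 and 0.0451 in pioglitazone mice, mostly under the limit, and was not tested.

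Whether the mice differ as if they had been collected at different hours was described from these values, since no hour is given. Vehicle mouse 2 was the lowest of the 8 mice in 5 of the 10 member probes tested (Per2, 2 Per3 and 2 Tef probes) and in the shared probe, and in 10.2% of all probes tested. It was also the lowest in Hlf and Ciart and the highest in Arntl, which were picked from the 18 other clock probes tested. Of these 18 it was the lowest in 3 and the highest in 5, Csnk1e and Timeless among the latter. Over all probes tested it was the highest in 9.55%. Ciart was at 1.60, 1.10, 1.62 and 1.59 in vehicle mice and at 1.35, 1.61, 1.48 and 1.30 in pioglitazone mice. Nr1d1, at 32.4 in vehicle mouse 2, did not follow, as it was above all 4 pioglitazone values.

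Vehicle mouse 3 had the lowest Arntl and Clock and the highest Nr1d1 of the 8 mice, a high shared probe and a low Tef. It was the lowest of the 8 mice in 2 of the 10 member probes tested and the highest in 1. Of the 18 other clock probes tested it was the lowest in 4 and the highest in 6. Over all probes tested it was the lowest in 22.6% and the highest in 25.4%. Whether its values are particular to the clock genes was not tested. An index was formed as the mean log2 deviation of the shared probe, Nr1d1 and Per3 minus that of Arntl and Npas2, where a positive value is the side of the day in tissues collected around the clock. It was -0.399, -1.21, 0.493 and -0.105 in vehicle mice and -0.588, 0.307, 0.715 and 0.786 in pioglitazone mice. Vehicle mouse 2 was at the low end and mouse 1 of each group came next, while mouse 3 of each group, pioglitazone mouse 2 and pioglitazone mouse 4 were positive. With Tef in place of the shared probe and without Npas2, chosen after seeing the data, the values ran from -1.78 in vehicle mouse 2 to 1.33 in vehicle mouse 3. With values raised to the limit of 0.2, under which most Npas2 values lie, vehicle mouse 1 was at -0.028, above vehicle mouse 4 at -0.0641, pioglitazone mouse 4 was at 0.169, and vehicle mouse 3 was the highest at 0.876. Vehicle mouse 2 stayed the lowest at -1.42, and the order of the others thus rested in part on values under the limit. The index has no test.

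**Figure D3:**
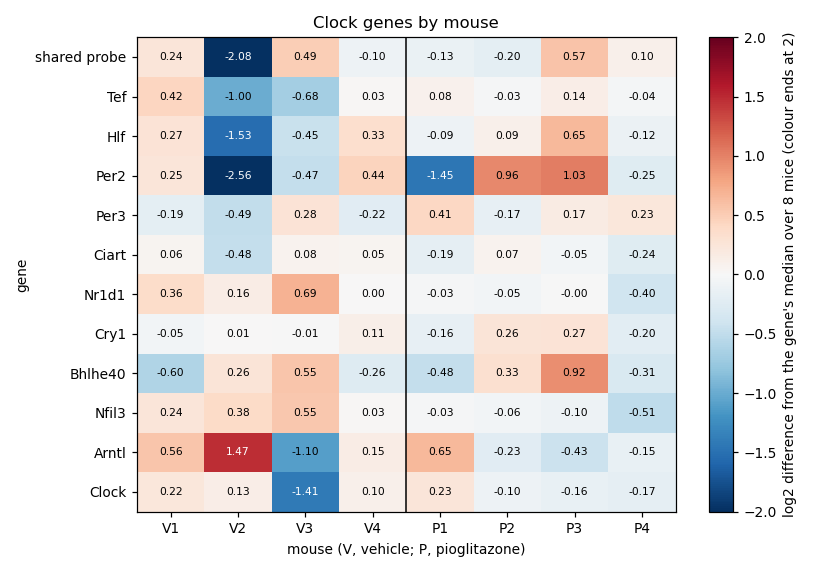
Log2 difference of each mouse from the median of the 8 mice for the brightest probe of 12 clock genes, with the value in each cell. Vehicle mouse 2 (V2) is low in the shared probe (-2.08), Tef (-0.997), Hlf (-1.53) and Per2 (-2.56) and high in Arntl (1.47), and vehicle mouse 3 (V3) is low in Arntl (-1.10) and Clock (-1.41).

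Of 8 relations between clock genes over the 8 mice, 0 passed an adjusted p of 0.05 by the exact permutation test on Pearson's r, and 3 had an unadjusted p under 0.05. The shared probe and Arntl ran in opposite directions (r = -0.799, exact permutation p = 0.0149, adjusted p = 0.119, and rho = -0.667, exact permutation p = 0.0831, adjusted p = 0.623). Within the groups, with group means removed, r was -0.789. Without vehicle mouse 2 alone, r was -0.581 (exact permutation test, adjusted p = 0.817). With quantile normalization the adjusted p was 0.0347 (r = -0.870). Without vehicle mouse 2 and pioglitazone mouse 3, the farthest from the median of the shared probe, r was -0.557.

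The shared probe and Per2 had r = 0.748 (exact permutation p = 0.0461, adjusted p = 0.123) and rho = 0.429 (exact permutation p = 0.299, adjusted p = 0.623), and r was -0.187 without these mice. The shared probe and Per3 had r = 0.679 (exact permutation p = 0.0409, adjusted p = 0.123) and rho = 0.381 (exact permutation p = 0.360, adjusted p = 0.623), and r was 0.252 without them. Without vehicle mouse 2 alone, r was 0.172 with Per2 and 0.297 with Per3. Without pioglitazone mouse 3 alone it was 0.708 and 0.660. Both positive relations thus rested mainly on vehicle mouse 2. The relation with Tef had r = 0.644 (exact permutation p = 0.0953, adjusted p = 0.191) and rho = 0.429 (exact permutation p = 0.299, adjusted p = 0.623). Its r fell to -0.490 without both mice. The other 4, of the shared probe with Nr1d1, Nr1d2 and Npas2 and of Nr1d1 with Arntl, had r from -0.204 to 0.296 and adjusted p from 0.675 to 0.768. For the repressor Nr1d1 and its target Arntl, r was -0.204 over all mice, -0.504 with group means removed, -0.578 with quantile normalization, -0.911 with the replicate block and 0.487 without vehicle mouse 3 and pioglitazone mouse 4. With the block the r of the shared probe was 0.637 with Nr1d1, 0.878 with Per2, -0.897 with Arntl and -0.112 with Per3. These blocked values rest on 4 differences between mice of the same number and were not tested.

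A further 8 relations were added after seeing the data. Tef and Hlf had r = 0.887 and rho = 0.833, and r was 0.369 without vehicle mice 2 and 3. Hlf was looked at because of the low Tef in these mice, so that this is a description and no test. Tef and Arntl had r = -0.134 (exact permutation p = 0.742, adjusted p = 0.848) and rho = 0.0238 (exact permutation p = 0.977, adjusted p = 0.977), and whether this differs from the relation of the shared probe with Arntl was not tested.

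The spread between mice within the groups differed among the members. The pooled within-group SD on the log2 scale was 1.28 for Per2, 0.862 for the shared probe, 0.569 for Clock, 0.462 for the brighter Tef probe and 0.251 for Nr1d1. It was 0.189 for Cry1, 0.126 for Cry2 and 0.0909 for Per1. Over all probes tested the median was 0.288, and over the 10 member probes it was 0.373. The shared probe lay at percentile 96.7 of all probes tested, Cry2 at 5.56 and Per1 at 1.37. Per2 lay at 99.3, but with 2 values under the limit. Arntl lay at 96.2 and Hlf at 92.4.

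Markers of other cells of the ovary also differed between the mice. The luteal list summed to 381 and 374 in vehicle mice 2 and 3, and to 134 to 333 in the other 6, and all 6 of its measured genes were above 0.2 on every array. Akr1c18, which breaks down progesterone in regressing corpora lutea, was at 36.2 in vehicle mouse 2 and 12.8 in vehicle mouse 3, and at 0.578 to 11.6 in the others. The theca gene Cyp17a1, an enzyme of androgen synthesis, was at 17.7 and 7.17 in these vehicle mice, at 9.07 in pioglitazone mouse 3 and at 75.6 to 297 in the other 5. The luteal sum of pioglitazone mouse 3 was 333 and its Tef was at 37.6. The part of luteal and theca cells in the Tef values of vehicle mice 2 and 3 and of the other mice was not tested.

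Csnk1e, which encodes the kinase CK1ε that marks PER proteins for breakdown, ran against Tef. It was at 2.10, 3.60, 3.51 and 2.11 in vehicle mice and at 2.16, 2.04, 2.10 and 2.36 in pioglitazone mice. Vehicle mice 2 and 3 were the high ones, and the groups overlapped. It was chosen after its values were seen. Its r with the brighter Tef probe was -0.940 over 8 mice, the 8th lowest of 12161 probes with 1 gene name and a mean of at least 1. In the same ranking the second Tef probe was first (r = 0.987) and Hlf was number 33. Ciart was number 1787 (0.527), Clock 2561 (0.444), Cry1 6004 (0.0536), Arntl 7556 (-0.134) and Nr1d1 9521 (-0.342).

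**Figure D4:**
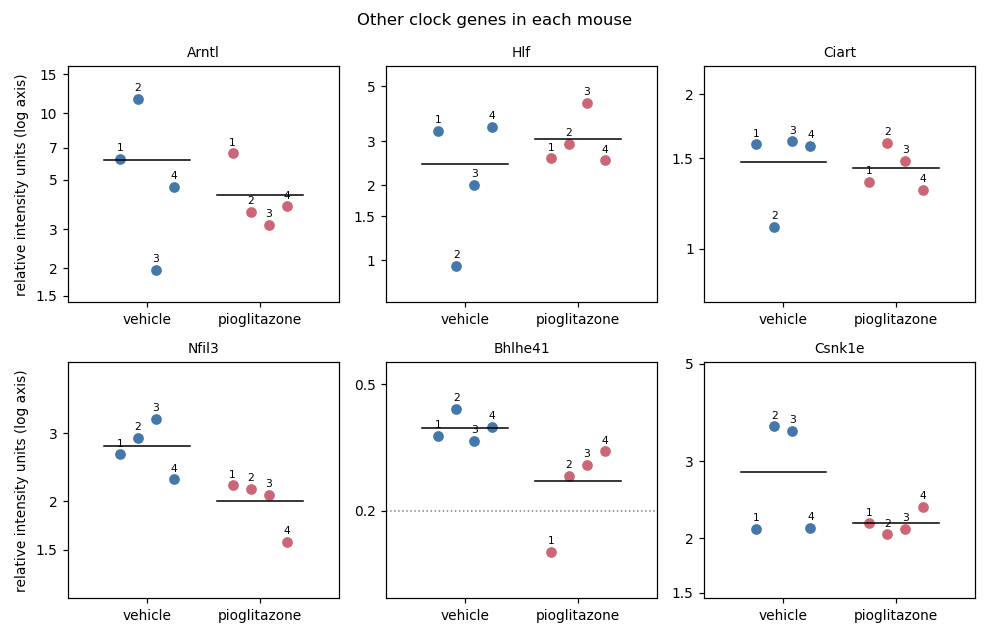
Relative intensity units (log axes) of Arntl, Hlf, Ciart, Nfil3, Bhlhe41 and Csnk1e in each mouse, drawn by the brightest probe. Each numbered point is 1 mouse, a horizontal line gives the arithmetic mean of a group, and dots mark the 0.2 limit. Arntl was at 11.6 in vehicle mouse 2 and 1.96 in vehicle mouse 3, and Csnk1e was at 3.60 and 3.51 in them.

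The genes whose values over the 8 mice were most like the shared probe were ranked by Pearson's r among 12162 probes. The highest were Airn, a noncoding RNA (0.981), Cntrl, a centriole protein (0.955), Gkn3 (0.942), Patj, a cell polarity protein (0.933), and Wipf2, an actin regulator (0.909). Hlf came at number 30 (0.831), Ciart at 61 (0.775), the deubiquitinase gene Usp2 at 173 (0.663) and the brighter Tef probe at 196 (0.644). Other clock genes lay further down. Per1 was at 342 (0.571), Nr1d1 at 3563 (0.093), Cry1 at 3666 (0.0849), Cry2 at 3697 (0.0826) and Clock at 10153 (-0.384). At the other end were Cdh17, a cadherin (-0.956), Pdha1, a subunit of pyruvate dehydrogenase (-0.947), Mmp21, a matrix protease (-0.940), Mepe, a bone matrix protein (-0.931), and Psmg1, a proteasome chaperone (-0.909). Arntl was the 49th lowest (-0.799). Mmp21 was at 18.7 in vehicle mouse 2 and at 0.624 to 0.878 in the other 7, and vehicle mouse 2 was the lowest of the 8 mice in the first 5 of these genes and the highest in the last 5. All values come from the same 8 arrays, and they are given as a description.

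Other genes that follow the clock, fasting or temperature were compared between the groups in the same fit. Of 7 probes of clock output genes, 0 passed an unadjusted p of 0.05 in limma, with a median log2 difference of -0.005. The brighter probe of Lonrf3, a gene that cycles in many tissues, had means of 8.27 and 6.78 in vehicle and pioglitazone mice with no overlap (adjusted p = 0.837 in limma, exact permutation p = 0.0286). The dimmer Lonrf3 probe, with means of 0.708 and 0.7115, had overlapping groups. Groups did not overlap in 1 of these 7 probes, against 4.59% of all probes. The means of Tspan4, a tetraspanin, were 16.0 and 13.6, and those of Wee1, a kinase that holds back mitosis, were 0.189 and 0.260. Of 13 probes of glucocorticoid and fasting genes, Per1 among them, 0 passed (median -0.161), with means of 2.93 and 1.23 for the cell cycle inhibitor Cdkn1a, of 5.67 and 4.64 for the metallothionein Mt2 and of 2.33 and 1.90 for the phosphatase Dusp1. Of 9 probes of temperature genes 0 passed (median -0.107). The cold-inducible RNA-binding protein genes Rbm3 and Cirbp, which rise when body temperature falls, had means of 16.2 and 12.4 (brighter probe) and of 18.9 and 25.7, and the heat shock gene Hsph1 of 1.35 and 0.954. Of 12 probes of immediate early genes 0 passed (median 0.029), and the groups of 1 did not overlap. Fosb, a Fos family gene, had means of 2.52 and 2.05 with no overlap (adjusted p = 0.837 in limma, exact permutation p = 0.0286), the means of Zfp36, which encodes an RNA-binding protein, were 4.20 and 3.29, and those of Btg2, an antiproliferative gene, 0.311 and 0.419.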

How the data were processed

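Ovarian RNA of 8 LY mice, 4 vehicle-treated and 4 pioglitazone-treated, was hybridised to 1 CodeLink array each. Groups and replicate numbers came from the sample titles. The deposited values are linear intensities, which the authors read in GenePix Pro, corrected for background in CodeLink software and divided by the slide median in GeneSpring. A further division of each gene by its median, which the methods name, was not seen in the values. The code -9999 was read as missing.

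Values were scaled to the median of their array, floored at 0.05 and taken to log2. Differences were tested with limma 3.58.1 in R 4.3.3, on the 30634 probes that had 3 or more values in each group and a mean reaching 0.2 in either, and p was adjusted over these by Benjamini-Hochberg. Fold differences of dim probes are understated by the floor. Genes were named from the platform annotation (21615 probes with 1 gene, 681 with several, 13931 with none), and none was named from a probe with several. Exact permutation tests (numpy 2.4.6) covered the 70 assignments of mice and, for relations, the 40320 orders of 8 mice. The brightest probe stood for a gene where 1 was needed.

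Members and lists were chosen with earlier results of these data known. Named are all members, Arntl, Npas2 and other clock genes called, up to 3 genes with the smallest p in each clock, fasting, temperature or immediate early list, and the 5 genes most and least like the shared probe. Hlf, Ciart, Usp2, Csnk1e, Rora, Fst, Bhlhe40, Sgk1, Fkbp5, Tsc22d3, Klf9, Nampt and the marker genes were chosen after their values were seen. The relations and the index had been planned with a Dbp probe, and the shared probe was used in its place. The replicate number was taken to pair the arrays, though the sample titles name no pairs. Deviations from the group means of same-numbered arrays correlated at 0.515, 0.181, 0.274 and 0.232. Vehicle array 2 correlated more with pioglitazone array 3 (0.369), so that the values do not bear out that pair. The methods fit no block, so blocked values stand beside results they change. The fit was tested on simulated data. The alternatives were other floors, normalizations, filters, variance models and tests, the block, and each array left out. Mice were housed 4 to a cage, which mice shared one is not given, and p-values measure the spread between these mice.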

Additional observations from a re-analysis of the deposited data

Results flagged for a closer look

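In 8 of 58 groups of 4 mice, 1 mouse of a clock probe lay far from the other 3 of its group by the gap to the nearest as a share of the group's range in log2 values. For independent normal values chance flags about 1 in 20 groups. The share flagged over all probes is not given, so whether the clock probes exceed it was not tested. Over all probes tested, vehicle mouse 3 was the lowest of the 8 mice at 22.6% and pioglitazone mouse 4 at 15.6%. In vehicle mouse 2 these were a Per3 probe at 0.0825 (others 0.300 to 0.339) and Ciart at 1.10 (others 1.59 to 1.62). In vehicle mouse 3 they were Clock at 4.43 (others 12.6 to 13.7) and Timeless, a replication fork gene named after a clock gene of flies, at 2.44 (others 7.57 to 8.13). Pioglitazone mouse 4 was low in Nr1d1 at 22.0 (others 28.0 to 29.0), Nfil3 at 1.57 (others 2.08 to 2.20) and a Rora probe at 3.72 (others 4.80 to 5.04). Pioglitazone mouse 1 was low in Fbxl21, a ubiquitin ligase gene for cryptochromes, at 0.0113 (others 0.235 to 0.267), which is under the limit of 0.2. The cause was not tested.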

How the results depend on the processing

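Of 467 values recomputed under alternatives, 417 kept their direction, their side of the threshold or, for counts, a size within 1.5 times. The count of member probes at unadjusted p under 0.05 in limma, 1 as reported, was 0 with quantile or cyclic loess normalization, no filter on dim probes, array weights, the unmoderated test of the methods and limma on linear values, and 2 with the replicate block. It ran from 0 to 2 with 1 array left out. The count of other clock probes, 2 as reported, was 1 with at least 0.2 in every array and ran from 0 (without vehicle replicate 2) to 3 with 1 array left out. Over all probes the count of 1685 was 2635 with the replicate block and ran from 740 (without pioglitazone replicate 4) to 2445 (without pioglitazone replicate 1). The share of these called as higher was 35.8%, and 46.4% and 46.8% with quantile and cyclic loess normalization. The cause of these shifts was not tested.

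With 1 array left out the log2 difference ran from -0.0527 to 0.104 for Cry1, from -0.20 to 0.35 for Clock, from -0.12 to 0.73 for the shared probe and from -0.766 to 0.0905 for Arntl. It ran from 0.000196 to 1.17 for Per2, from 0.115 to 0.589 for Tef and from 0.0829 to 0.703 for Hlf, each lowest without vehicle replicate 2. That of Clock was -0.12 with array weights. The r of the shared probe ran from -0.255 to 0.941 with Tef and from -0.216 to 0.493 with Nr1d1, and that of Nr1d1 with Arntl from -0.367 to 0.521. With the replicate block the r of the shared probe was -0.112 with Per3 and 0.637 with Nr1d1 (0.679 and 0.093 as reported), and that of Nr1d1 with Arntl was -0.911 (-0.204 as reported). Of the 8 relations, 0 passed as reported and 1 with quantile normalization. The range of the index over mice was 2.00, and 3.11 with Tef in place of the shared probe and no Npas2. The replicate block changed the call of no other clock probe. Values near 0.2 limit Per2, Per3, Bhlhe41, Npas2 and Nr1d2.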

Other observations

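Bhlhe40, Sgk1, Fkbp5, Tsc22d3, Klf9 and Nampt were chosen after their values were seen. Bhlhe40, which encodes the E-box repressor DEC1, was at 1.80 and 2.20 in vehicle mice 2 and 3 and at 1.88 and 2.85 in pioglitazone mice 2 and 3, and at 0.994 to 1.26 in mice 1 and 4 of both groups. The glucocorticoid-responsive gene Sgk1 was at 6.98 and 10.2 in vehicle mice 2 and 3 and at 5.00 and 15.5 in pioglitazone mice 2 and 3, against 1.05 to 2.28 in mice 1 and 4. Fkbp5 shared this order, at 3.62 to 9.59 in mice 2 and 3 and at 0.575 to 2.95 in mice 1 and 4. Other genes of the glucocorticoid and fasting list did not all share it. Tsc22d3 was at 51.7, 34.2, 21.4 and 39.85 in vehicle mice and at 53.5, 34.8, 30.9 and 27.9 in pioglitazone mice. The brighter Klf9 probe was at 42.3, 33.3, 14.0 and 30.8 and at 47.8, 28.9, 35.4 and 21.9. Nampt, an enzyme of NAD synthesis that follows the clock, was at 8.30 and 3.92 in vehicle mice 2 and 3 and at 6.39 and 9.14 in pioglitazone mice 2 and 3. In mice 1 and 4 it was at 4.75 and 6.11 with vehicle and at 2.37 and 4.36 with pioglitazone, so that vehicle mouse 3 did not share the order of the others.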
